A study of Mus musculus with 39 samples.

Results

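The Auts2 and Zfp608 loci held more RBPJ peaks in radial glial cells (RGCs) than any other protein-coding genes, and they are described here peak by peak, together with their paralogs Fbrsl1 and Zfp609. Each peak was given to the gene whose start site lay closest to its edge on the mouse genome build mm10, among all protein-coding genes. By this rule 91 of the 20809 consensus peaks on the nuclear chromosomes belonged to the 4 genes, with 47 at Auts2, 37 at Zfp608, 5 at Zfp609 and 2 at Fbrsl1. Auts2 and Zfp608 were selected on their counts in the RGC RBPJ list, so those counts are given as a description and carry no test. Just inside the selection stood Zfp608 with 33 list peaks, below Auts2 with 37, and just outside it stood Epha4, a receptor of the ephrin family, with 32.

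The binding profiles were made by targeted DamID (TaDa), which joins the bacterial methylase Dam to the protein under study and reads out the GATC sites that Dam then marks along the DNA it reaches. Plasmids were brought into the cortex of wild-type MF1 mouse embryos by in utero electroporation at E13.5 and the tissue was collected at E14.5. RGC profiles used plasmids driven by the Hes5 promoter, with 3 samples of human RBPJ1, 4 samples of mouse Notch (2 with NICD and 2 with NdECD) and 5 samples of Dam alone. Profiles of intermediate progenitor cells (IPCs) used plasmids driven by the Ta1 promoter, with 3 samples of human RBPJ1, 4 samples of mouse NICD and 4 samples of Dam alone. The cell types therefore rest on the 2 promoters, every fusion was expressed from a plasmid, and the Notch forms differed between the cell types, so that a difference between RGC Notch and IPC Notch cannot be told apart from a difference between the forms. The 4 peak lists (RGC RBPJ, RGC Notch, IPC RBPJ and IPC Notch) each pool the samples of a group, so no value of a single sample could be given and the labelled cell types could not be checked against markers, and the lists of a cell type share the Dam-only controls. The study also sorted the consensus peaks, the merged peaks of the 4 lists, into 8 clusters by binding intensity rather than by the calls. By those intensities cluster 1 marks Notch in RGCs, clusters 5 and 8 RBPJ in RGCs, cluster 3 RBPJ in IPCs, cluster 4 both proteins in RGCs, and clusters 2, 6 and 7 both proteins in both cell types. The other 16 of the 39 samples of the series were not used here.

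NOTCH receptors are cleaved when a neighbouring cell presents a ligand, and the released intracellular domain (NICD) enters the nucleus and binds RBPJ, the DNA-binding protein of the pathway. RBPJ recognises the bases TTCCCA, and can hold target genes silent when NICD is absent. In the embryonic cortex the pathway keeps RGCs, the neural stem cells, from turning too early into IPCs and neurons. Auts2 encodes a nuclear protein linked to autism and intellectual disability, which joins a variant Polycomb complex through PCGF proteins and brings in casein kinase and the acetyltransferase p300. Fbrsl1 encodes a related protein of the same family. Zfp608 and Zfp609 encode a pair of related zinc finger proteins, of which ZFP609 is known to work with the cohesin loader NIPBL and the Integrator complex in cortical neurons. All 4 genes are transcribed from the minus strand.

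Auts2 was the gene with the most consensus peaks of the 21911 protein-coding genes with a start site, and Zfp608 ranked 3, after Epha4 with 39. The Auts2 count fell to 30 when each gene had 1 start site, and Epha4 then led with 38. With the start sites of noncoding genes allowed as well, Auts2 had 9 peaks, Zfp608 had 7 and Sox6 led with 26. A gene with at least 1 peak had a median of 1 peak, and 276 genes had 10 or more. In the other lists Zfp608 also ranked high, but these lists are not independent of the selection. RGC RBPJ also called 10 of the 11 Zfp608 consensus peaks called in RGC Notch, and 10 of the 13 called in IPC RBPJ. The ranks are by count, and the territories of Zfp608 and Auts2, described next, ranked 224 and 89 by size. Zfp608 had 11 peaks in RGC Notch (rank 4), 14 in IPC RBPJ (rank 2) and 9 in IPC Notch (rank 2). Auts2 had 11 peaks in IPC RBPJ (rank 3), but 5 in RGC Notch (rank 38) and 4 in IPC Notch (rank 36). Of its 11 IPC RBPJ peaks, 5 held no GATC, the site that Dam marks. Epha4 had 13, 7 and 9 peaks in the same 3 lists.

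Both loci are large. The territory of a gene, the bases nearer to its start sites than to those of any other protein-coding gene, measured 1939 kb for Auts2 (chr5:131382180-133321527) and 1283 kb for Zfp608 (chr18:54413904-55696446), against a median of 45.1 kb over all genes. The 20 genes with the largest territories, 3221 kb to 4426 kb, had from 0 to 15 peaks with a median of 3.5. Auts2 had 24.2 peaks per Mb of territory and Zfp608 had 28.8, beside a median of 3.78 and a 90th percentile of 14.8 among the 1109 genes with at least 500 kb, and 7.63 over the genome. By density Zfp608 ranked 16 and Auts2 ranked 34 of those 1109 genes. Counting GATC sites in place of bases gave ranks of 18 and 38. These densities follow in part from the selection. RGC RBPJ, the list that selected the genes, called 36 of the 47 Auts2 peaks and 32 of the 37 Zfp608 peaks.

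**Figure D1:**
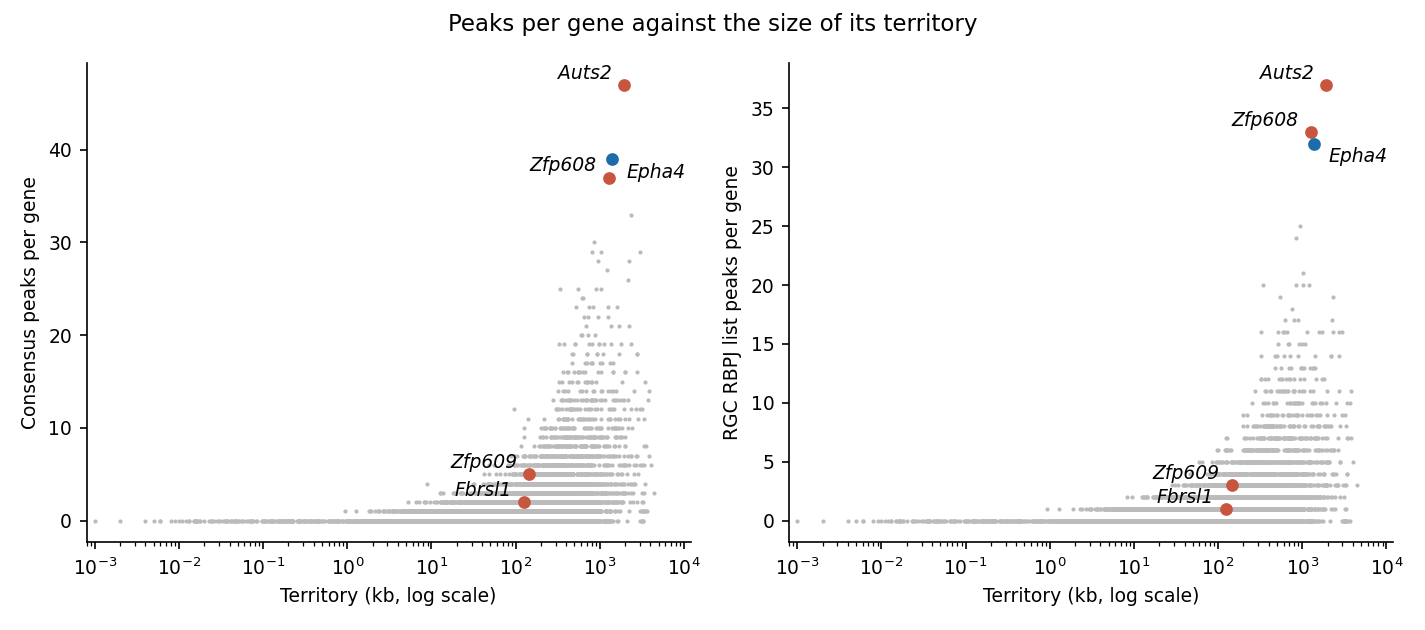
Consensus peaks (left) and RGC RBPJ list peaks (right) of each protein-coding gene, drawn as 1 point a gene, against its territory in kb on a log scale. Auts2, Zfp608 and Epha4 stand above all other genes on both counts at territories of 1283 kb to 1939 kb, while Fbrsl1 and Zfp609, with territories of 126 kb and 146 kb, lie among the bulk of the points.

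Auts2 (ENSMUSG00000029673, chr5:131437333-132543344) spans 1106 kb, and 40 of its 47 peaks had their midpoint in the gene. Of these, 39 lay in introns and 1 lay in an exon of a shorter transcript. Introns held 83.0% of the Auts2 peaks (95% Wilson interval 69.9 to 91.1), beside 47.3% of all consensus peaks. The gene fills 1106 kb of its territory of 1939 kb, and the background was not matched for this. The positions were not spread over the whole gene. On the longest transcript of the gene, with 19 exons, all 40 fell in introns 1 to 5, which together measure 1007 kb. That transcript is annotated as a processed transcript and not as protein-coding. Intron 1 (282 kb) held 11 peaks, intron 2 (209 kb) held 8, intron 3 (19.3 kb) held 1, intron 4 (260 kb) held 10 and intron 5 (237 kb) held 10. The 4 long introns were alike in density, with 38.4 to 42.2 peaks per Mb. The other 13 introns, 91.3 kb towards the 3′ end, held none, where a count of 0 allows up to 32.8 peaks per Mb. Upstream of the gene the density fell to 8.995 peaks per Mb, with 7 peaks over 778 kb whose near edges lay from 36.9 kb to 654 kb from the 5′ end. No peak lay in the 55.2 kb of territory beyond the 3′ end, which allows up to 54.4 per Mb.

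At Zfp608 (ENSMUSG00000052713, chr18:54888048-54992555) most peaks lay outside the gene, which fills a smaller part of its territory than Auts2 does. Zfp608 spans 104.5 kb and held 7 of the 37 peaks, while 21 lay upstream and 9 lay downstream. The density was 67.0 peaks per Mb in the gene, 29.8 upstream and 19.0 downstream. Auts2 too was denser in the gene than upstream of it, with 36.2 against 8.995 peaks per Mb. Outside protein-coding genes and their 5 kb upstream stretches lay 29 of 37 peaks, 78.4% (62.8 to 88.6), against 14.9% at Auts2 and 38.7% of all consensus peaks. The nearest coding start sites beyond the locus are those of Csnk1g3, a casein kinase, 963 kb away on one side, and of Gramd3, 1408 kb away on the other, and these genes had 7 and 13 peaks of their own. Auts2 had Galnt17, a glycosyltransferase, 147 kb beyond its last start site with 9 peaks, and Castor2 1556 kb upstream with 13. Start sites of noncoding genes were not counted in these distances, and Zfp608 peaks 282346 bp, 149378 bp and 630050 bp from a coding start site held those of AC115119.1, Gm34073 and Gm24514. A further peak, 71146 bp from a coding start site and called in 3 lists, held that of AC129179.2. More than 100 kb from the nearest coding start lay 40.4% (27.6 to 54.7) of the Auts2 peaks and 59.5% (43.5 to 73.7) of the Zfp608 peaks, against 22.7% of all. The background pools genes of all territory sizes, with a median of 45.1 kb, where such distances are mostly out of reach. No comparison with large territories alone was made for position.

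**Figure D2:**
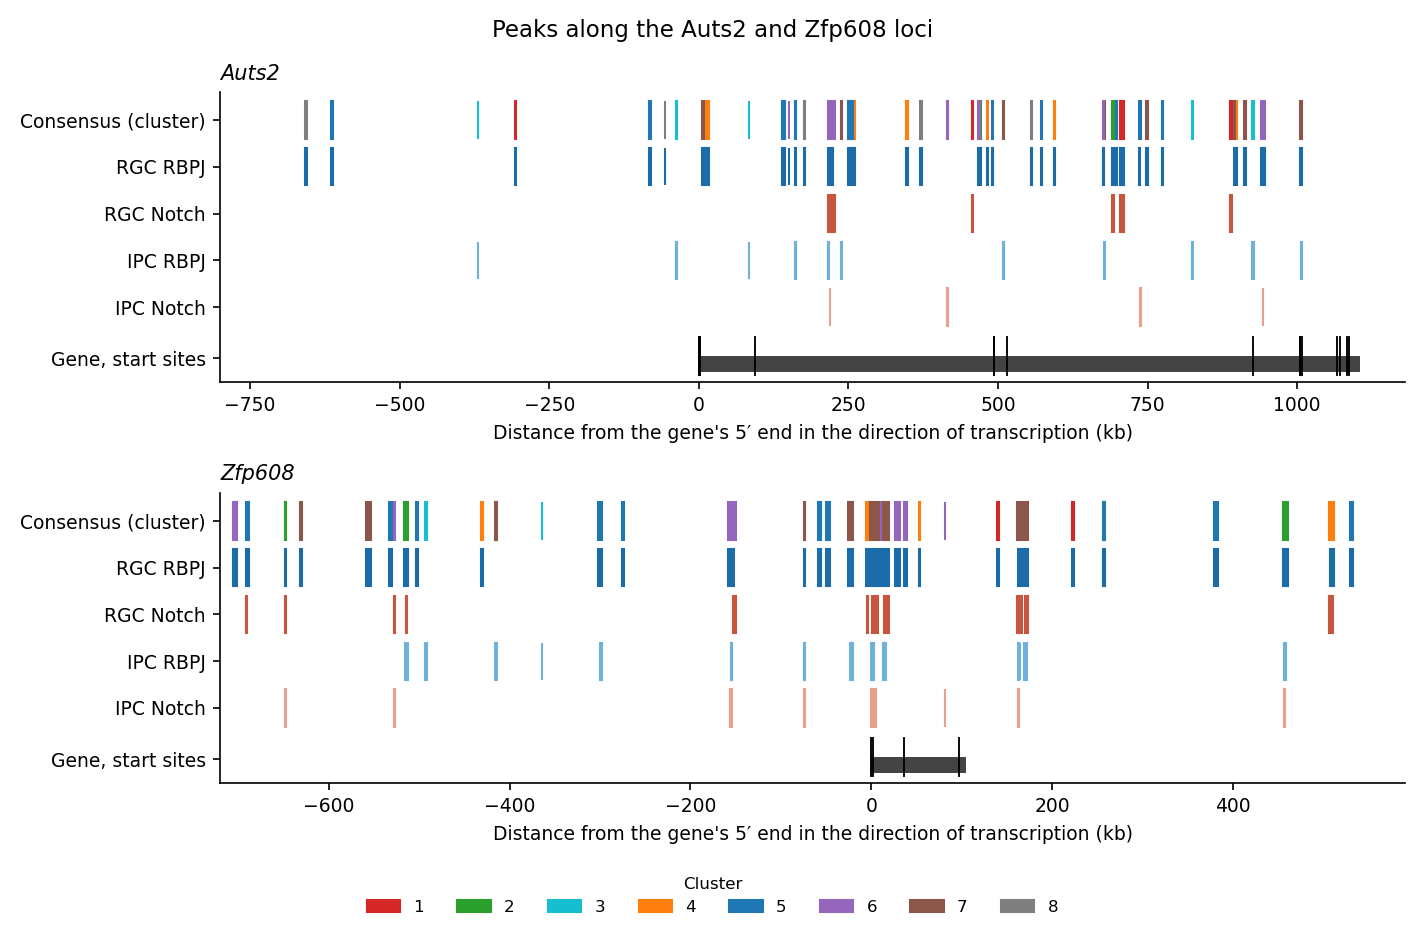
Consensus peaks coloured by cluster and the peaks of the 4 lists along Auts2 (top) and Zfp608 (bottom), by distance in kb from the 5′ end of the gene, with the gene as a grey bar and its start sites as black lines. Outlines make narrow peaks slightly wider than they are. The Auts2 peaks lie along the whole length of the first 5 introns, most of them RGC RBPJ peaks, and the Zfp608 peaks stand on both sides of a short gene, densest at its 5′ end.

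Few peaks lay on a start site. A start site of the gene lay in 2 of the 47 Auts2 peaks and in 1 of the 37 Zfp608 peaks, 4.26% (1.17 to 14.2) and 2.70% (0.479 to 13.8), against 16.6% of all consensus peaks. That background was not matched for the size of the territory either. Of the 20 annotated start sites of Auts2, 2 lay in a peak. The start at position 131534397, 1009 kb into the gene, lay in a peak of 3589 bp called in RGC RBPJ and IPC RBPJ (chr5:131534339-131537927, cluster 7). The start at 131616605, 927 kb into the gene, lay in a peak of 2479 bp called in IPC RBPJ alone (chr5:131615937-131618415, cluster 3). The outermost start of the gene is at 132543344, and the nearest peak to it was 5245 bp away and called in RGC RBPJ alone. Other starts near this 5′ end were closer to that peak, the closest at 132541823, 3724 bp away. Of the 20 start sites 14 lay within 5 kb of a peak. Several of them stand close together and share their nearest peak, as do those from 132541823 to 132542798. The 14 sites are therefore not 14 separate places. The nearest Notch peaks to the outermost start were 215673 bp away in RGCs and 218816 bp away in IPCs.

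At Zfp608, 2 of the 4 start sites lay in a peak, the same one. It was the widest of the locus, 11761 bp (chr18:54984148-54995908, cluster 7), and was called in all 4 lists. RGC RBPJ, IPC RBPJ and IPC Notch peaks covered the outermost start at 54992555, and the RGC Notch peak began 885 bp inside the gene. Over 827 bp (chr18:54990844-54991670) all 4 lists overlapped. The same peak covered the start of Gm4221, a transcript that runs away from Zfp608 on the other strand, and 5 further consensus peaks overlapped Gm4221 (chr18:54996292-55067490, from the first to the last of them).

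The paralogs had few peaks, in territories of 126 kb for Fbrsl1 and 146 kb for Zfp609. Zfp609 (ENSMUSG00000040524, chr9:65692391-65827564) had 5 consensus peaks, 34.3 per Mb, of which 4 formed a run of 18.2 kb over its 5′ end. Its start at 65827564 lay in a gap of 892 bp (chr9:65826882-65827773) that held 3 GATC sites and no TTCCCA. On the gene side of the gap lay a peak called in IPC RBPJ alone (1390 bp, cluster 7), and on the other side one called in RGC RBPJ and IPC Notch (3190 bp, cluster 2). Further upstream, 4461 bp from the start, a peak of 4081 bp was called in all 4 lists (chr9:65832025-65836105, cluster 2), and all 4 overlapped over 1435 bp of it (chr9:65834126-65835560). Both upstream peaks had their midpoint inside Trip4, the next gene, whose nearest start site is 25.6 kb from that of Zfp609. With 4 IPC Notch list peaks, Zfp609 matched Auts2 in that list, on a territory of 146 kb against 1939 kb. Fbrsl1 (ENSMUSG00000043323, chr5:110361754-110448503) had 1 peak of 715 bp in intron 3, called in RGC RBPJ and IPC Notch (chr5:110416390-110417104, cluster 2). Its other peak, of 1262 bp and called in IPC RBPJ alone (chr5:110448988-110450249, cluster 3), lay 485 bp upstream of the outermost start. Neither paralog had a peak on a start site. RGC Notch had no peak at Fbrsl1, and its nearest lay 918304 bp from that start.

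**Figure D3:**
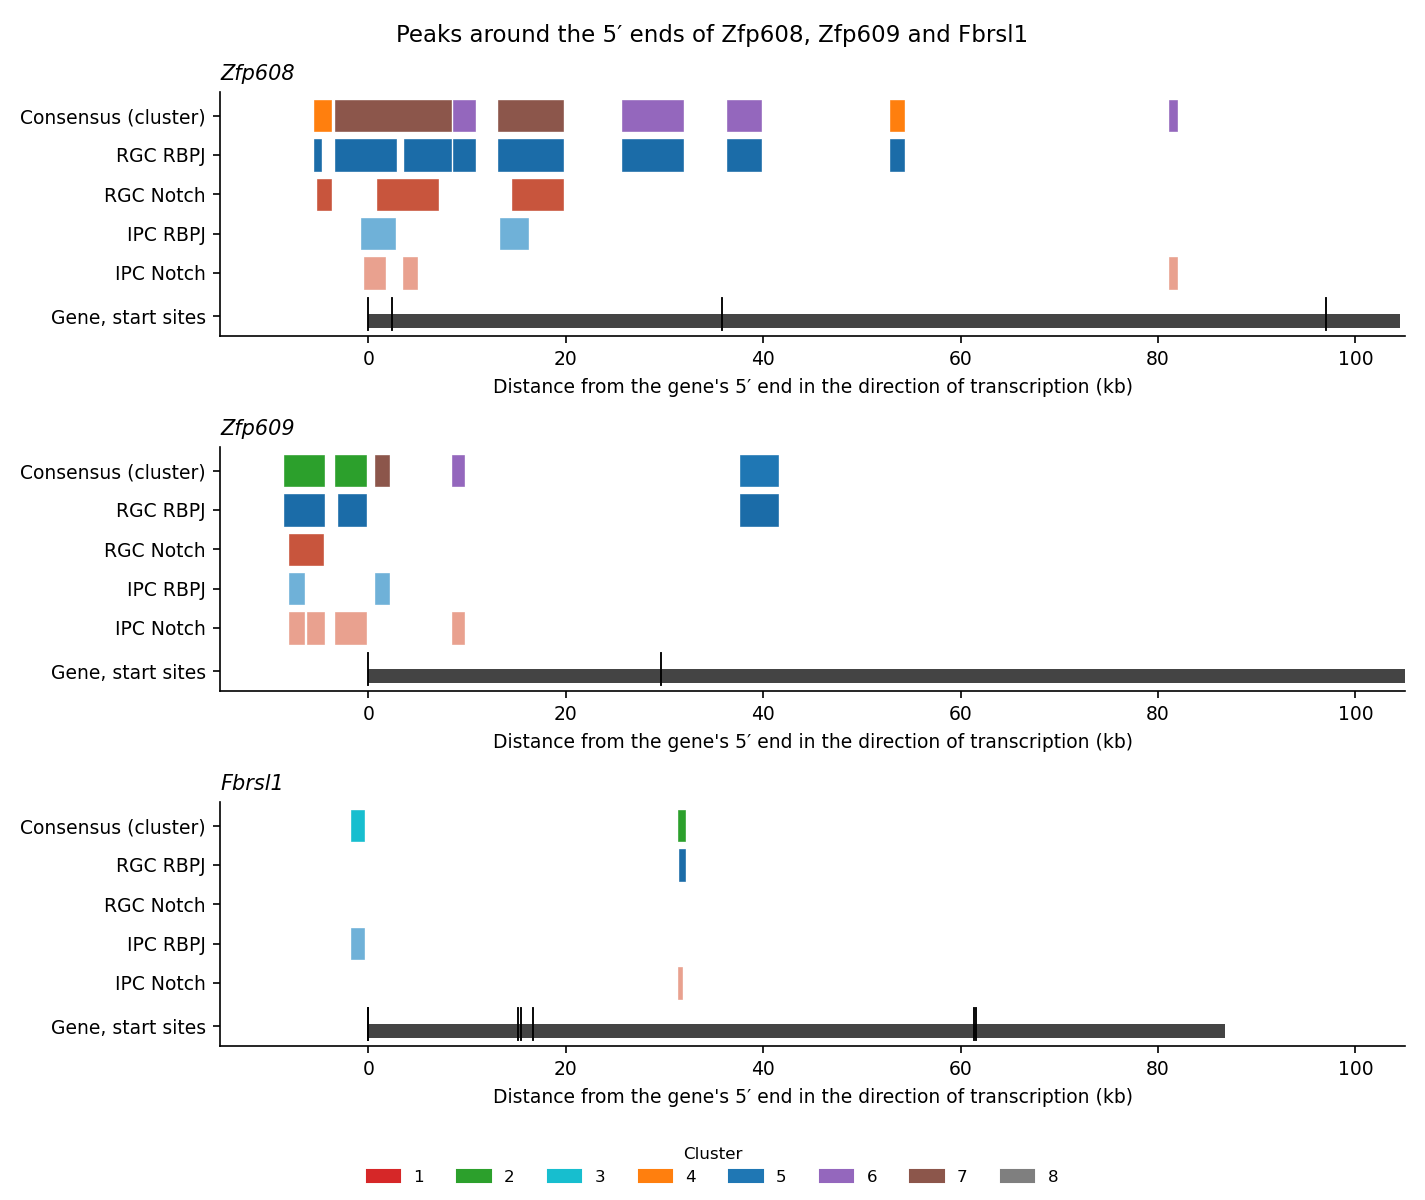
Consensus peaks coloured by cluster and the peaks of the 4 lists around the 5′ ends of Zfp608, Zfp609 and Fbrsl1, by distance in kb in the direction of transcription, at the same scale. At Zfp608 all 4 lists overlap just inside the 5′ end, at Zfp609 they overlap in a peak that begins 4461 bp upstream of it, and at Fbrsl1 no peak is called in more than 2 lists.

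TTCCCA, the bases that RBPJ recognises, was searched on both strands of each consensus peak. It was present in 42 of 47 Auts2 peaks (89.4%, 77.4 to 95.4) and 36 of 37 Zfp608 peaks (97.3%, 86.2 to 99.5), against 82.9% of all, and wider peaks have more bases to hold it. Per kb of peak the word occurred 1.03 times at Auts2 and 1.16 times at Zfp608, against 1.17 over all consensus peaks, so neither locus was richer in it. The 7-base word TTCCCAC, which contains it, was present in 25 Auts2 peaks (53.2%, 39.2 to 66.7) and 22 Zfp608 peaks (59.5%, 43.5 to 73.7), against 41.2%, and occurred 0.281 and 0.218 times per kb, against 0.270. An inverted pair of the word, TGGGAA and TTCCCA with 15 to 17 bases between them, is an arrangement at which NICD and RBPJ complexes can pair. It was present in 1 Auts2 peak, in 0 of 37 Zfp608 peaks (which allows up to 8.11%) and in 0.231% of all consensus peaks. A match says that these letters are in the window and nothing about binding there.

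Sequences are shown for some of the places where a call and the word coincide, from the mm10 genome (GRCm38), 5′ to 3′ on the strand given, with the word in capitals. None is shown for Zfp608, where 22 peaks held TTCCCAC. The stretches shared by all 4 lists in its peaks of 5895 bp and 11761 bp held 1 TTCCCA each. The inverted pair lies in intron 1 of Auts2, in a peak of 9061 bp called in RGC RBPJ alone (cluster 5):
Auts2, 254 kb into the gene, chr5:132285209-132285265, plus strand: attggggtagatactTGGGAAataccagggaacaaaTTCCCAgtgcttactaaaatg
A peak of intron 4 called in both RGC lists (chr5:131849863-131852751, cluster 2) held 2 copies of TTCCCAC:
Auts2, 692 kb into the gene, chr5:131850079-131850118, plus strand: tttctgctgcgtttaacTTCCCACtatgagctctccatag
Auts2, 692 kb into the gene, chr5:131851736-131851775, minus strand: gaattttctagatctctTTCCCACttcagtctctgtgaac
The widest Auts2 peak held a single copy, at a place called in RGC RBPJ, RGC Notch and IPC RBPJ:
Auts2, 221 kb into the gene, chr5:132326861-132326900, plus strand: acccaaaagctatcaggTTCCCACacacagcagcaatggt
The Auts2 peak with the most copies, 4, is one of 3001 bp in intron 1 (chr5:132380242-132383242, cluster 5), and 2 of them lie where RGC RBPJ and IPC RBPJ overlap, of which 1 is shown:
Auts2, 162 kb into the gene, chr5:132381790-132381829, plus strand: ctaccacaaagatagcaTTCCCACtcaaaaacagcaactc
At Zfp609, the peak called in 4 lists held 2 copies of TTCCCAC outside the stretch shared by all 4, and 2 copies of TTCCCA within it:
Zfp609, upstream of the gene, chr9:65833601-65833640, minus strand: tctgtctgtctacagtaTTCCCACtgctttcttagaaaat
Zfp609, upstream of the gene, chr9:65833856-65833895, minus strand: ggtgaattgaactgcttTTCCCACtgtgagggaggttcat
Zfp609, shared stretch, chr9:65834339-65834378, plus strand: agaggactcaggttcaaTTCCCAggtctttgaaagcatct
Zfp609, shared stretch, chr9:65835083-65835122, plus strand: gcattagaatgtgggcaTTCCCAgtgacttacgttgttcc

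The distances into Auts2 are those of the peak midpoints from the 5′ end. RefSeq gives Fbrsl1 2 start sites. The 250 bases before the outer one (chr5:110448504-110448753, 69.2% G and C) held neither TTCCCA nor GATC, those before the inner one (chr5:110387128-110387377, 63.6% G and C) held 3 GATC sites and no TTCCCA, and 21.6% and 41.9% of the 32851 RefSeq promoters held them in the same window. Fbrsl1 was matched in that promoter table, and Auts2 and Zfp609 were not.

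The share of peaks called was higher at Zfp608 than at Auts2 in each of the 4 lists, but the intervals of the 2 loci overlapped in each. Auts2 was close to the background of all consensus peaks in each list. RGC RBPJ called 36 of its 47 peaks, 76.6% (62.8 to 86.4), against 67.6% of all, RGC Notch called 5, 10.6% (4.63 to 22.6), against 17.7%, IPC RBPJ called 11, 23.4% (13.6 to 37.2), against 26.2%, and IPC Notch called 4, 8.51% (3.36 to 19.9), against 10.1%. At Zfp608, RGC RBPJ called 32 of 37, 86.5% (72.0 to 94.1), and IPC Notch called 9, 24.3% (13.4 to 40.1), and both intervals lie above the background. RGC Notch called 11, 29.7% (17.49 to 45.8), and IPC RBPJ called 13, 35.1% (21.8 to 51.2), and both intervals contain it. When a list had to cover 50% of the consensus peak, the IPC RBPJ share at Zfp608 was 18.9%, beside 19.1% at Auts2 and 22.2% of all, and the IPC Notch share was 10.8%, beside 2.13% and 6.78%. The RGC RBPJ shares rest on the list that selected the genes. These intervals cover counting error over peaks, and the peaks of a locus are not replicates of a condition.

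Peaks shared between lists were more frequent at Zfp608 than at Auts2. At Zfp608, 9 of 37 peaks were called in 3 or 4 lists, 24.3% (13.4 to 40.1), beside 1 of 47 at Auts2, 2.13% (0.377 to 11.1), and 3.88% of all consensus peaks. All 4 lists called 3 Zfp608 peaks, 1 Auts2 peak and 1 Zfp609 peak, beside 0.678% of all. Both RGC lists called 27.03% (15.4 to 43.0) of the Zfp608 peaks and 6.38% (2.19 to 17.2) of the Auts2 peaks, against 7.77% of all. Both IPC lists called 13.51% (5.91 to 28.0) and 2.13% (0.377 to 11.1), against 2.36%. Pairs of lists across the cell types showed the same order. RBPJ was called in both cell types at 27.03% (15.4 to 43.0) of the Zfp608 peaks and 6.38% (2.19 to 17.2) of the Auts2 peaks, against 6.85%, and Notch was called in both at 13.51% (5.91 to 28.0) and 2.13% (0.377 to 11.1), against 2.37%. At least 1 IPC list called 45.9% (31.0 to 61.6) and 29.8% (18.7 to 44.0), against 33.9%. A single list called 85.1% (72.3 to 92.6) of the Auts2 peaks, near the 82.9% of all, and 56.8% (40.9 to 71.3) of the Zfp608 peaks. For 29 Auts2 peaks (61.7%, 47.4 to 74.2) and 17 Zfp608 peaks (45.9%, 31.0 to 61.6) that list was RGC RBPJ, against 52.1%. All 9 Zfp608 peaks called in 3 or 4 lists were called in RGC RBPJ, the list that selected the genes. Every share here that counts RGC RBPJ calls therefore rests in part on that selection.

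The 4-list peak of Auts2 was also its widest, 11969 bp (chr5:132315915-132327883, cluster 6), 221 kb into the gene in intron 1. No base of it was called in all 4 lists. RGC Notch covered 11757 bp of it, while IPC RBPJ and IPC Notch were called at separate places within it, at 132325869-132327883 and 132323313-132324528. A Zfp608 peak of 9629 bp, 149 kb upstream of the gene (chr18:55141933-55151561, cluster 6), was likewise called in 4 lists with no base shared by all. The remaining 4-list peak of Zfp608, 5895 bp wide and downstream of the gene (chr18:54825400-54831294, cluster 7), had 1109 bp shared by all 4 (chr18:54828893-54830001).

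The 6 Zfp608 peaks called in 3 lists lay along the whole locus (distances are from the 5′ end, to the midpoint within and downstream of the gene and to the near edge upstream of it). RGC RBPJ, RGC Notch and IPC RBPJ called a peak 171 kb downstream (chr18:54819433-54824416, cluster 7), which lies 983 bp from the 4-list peak there, one 16.47 kb into the gene (chr18:54972801-54979377, cluster 7), and one 512 kb upstream (chr18:55504562-55509356, cluster 2). RGC RBPJ with both IPC lists called a peak 458 kb downstream (chr18:54532168-54537319, cluster 2) and one 72.9 kb upstream (chr18:55065501-55067490, cluster 7). RGC RBPJ with both Notch lists called a peak 647 kb upstream (chr18:55639498-55641376, cluster 2).

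Peaks were wider at Zfp608, and wide peaks were called by more lists throughout the genome. The median width was 3469 bp at Zfp608 and 2232 bp at Auts2, against 1890 bp over all consensus peaks, and 9 Zfp608 peaks, 24.3% (13.4 to 40.1), and 3 Auts2 peaks, 6.38% (2.19 to 17.2), reached 5 kb, against 5.19% of all. Both loci had medians above that of the list in RGC RBPJ, RGC Notch and IPC RBPJ, and Auts2 lay below it in IPC Notch. In RGC RBPJ the median was 3865 bp at Zfp608, 2625 bp at Auts2 and 2059 bp over the list, and in RGC Notch it was 3330 bp, 2889 bp and 2389 bp. In IPC RBPJ it was 1840.5 bp, 1687 bp and 1398 bp, and in IPC Notch 1392 bp, 1220.5 bp and 1284 bp. Among peaks called in RGC RBPJ alone, the Zfp608 median was 3096 bp, the Auts2 median 2232 bp and that of all such peaks 1891 bp. Of the peaks under 5 kb, 4 of 28 at Zfp608 were called in 3 or 4 lists, 14.3% (5.70 to 31.5), beside 0 of 44 at Auts2 and 2.92% (2.70 to 3.17) of all. Of those of 5 kb or more, 5 of 9 at Zfp608 were called so, 55.6% (26.7 to 81.1), beside 1 of 3 at Auts2, 33.3% (6.15 to 79.2), and 21.3% (18.9 to 23.8) of all. The Zfp608 share was above that of all peaks in both width classes. Widths were not matched within a class, and the part of width in the sharing of lists was not tested. When a list counted only if it covered 50% of the consensus peak, 2 Zfp608 peaks kept 3 or more lists, 5.41%, beside 1.24% of all. Consensus peaks covered 10.7% of the Zfp608 territory, 9.41% of that of Zfp609, 6.42% of that of Auts2 and 1.57% of that of Fbrsl1.

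Among the clusters, cluster 5 was the most frequent at both loci, with 10 Auts2 peaks (21.3%) and 10 Zfp608 peaks (27.03%), against 22.5% of all. Cluster 7 held 8 Auts2 peaks (17.0%, 8.89 to 30.1) and 9 Zfp608 peaks (24.3%, 13.4 to 40.1), against 11%, a background that lies below the interval of Zfp608, and cluster 6 held 7 (14.9%) and 7 (18.9%), against 10.8%. Cluster 4 held 6 (12.8%) and 4 (10.8%), against 9.79%, cluster 2 held 2 (4.26%) and 3 (8.11%), against 4.76%, and cluster 1 held 4 (8.51%) and 2 (5.41%), against 10.5%. In clusters 1, 2, 4 and 6 the background lay within the interval of both loci. The same held for cluster 3, with 5 (10.6%, 4.63 to 22.6) and 2 (5.41%, 1.495 to 17.7), against 16.3%. Cluster 8 held 5 Auts2 peaks (10.6%, 4.63 to 22.6) and 0 of 37 Zfp608 peaks, which allows a share of up to 8.11%, against 14.4%. The Zfp609 peaks were 2 of cluster 2 and 1 each of clusters 5, 6 and 7.

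Calls and clusters did not map onto each other 1 to 1, either at these loci or over the genome. The 29 Auts2 peaks called in RGC RBPJ alone fell into 7 clusters, with 8 in cluster 5, 6 in cluster 4, 5 in cluster 8, 4 each in clusters 6 and 7, and 1 each in clusters 1 and 2. The 17 such peaks of Zfp608 had 8 in cluster 5, 3 in cluster 6 and 2 each in clusters 1, 4 and 7. Over the genome, the 10833 such peaks had 4141 in cluster 5, 2969 in cluster 8 and 1111 in cluster 4. Clusters 7, 6, 1, 2 and 3 held 894, 820, 598, 243 and 57 of them. Of the 8 Auts2 peaks called in IPC RBPJ alone, 5 were in cluster 3 and 3 in cluster 7. Over the genome 3174 of the 3810 peaks called so were in cluster 3 and 495 in cluster 7.

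**Figure D4:**
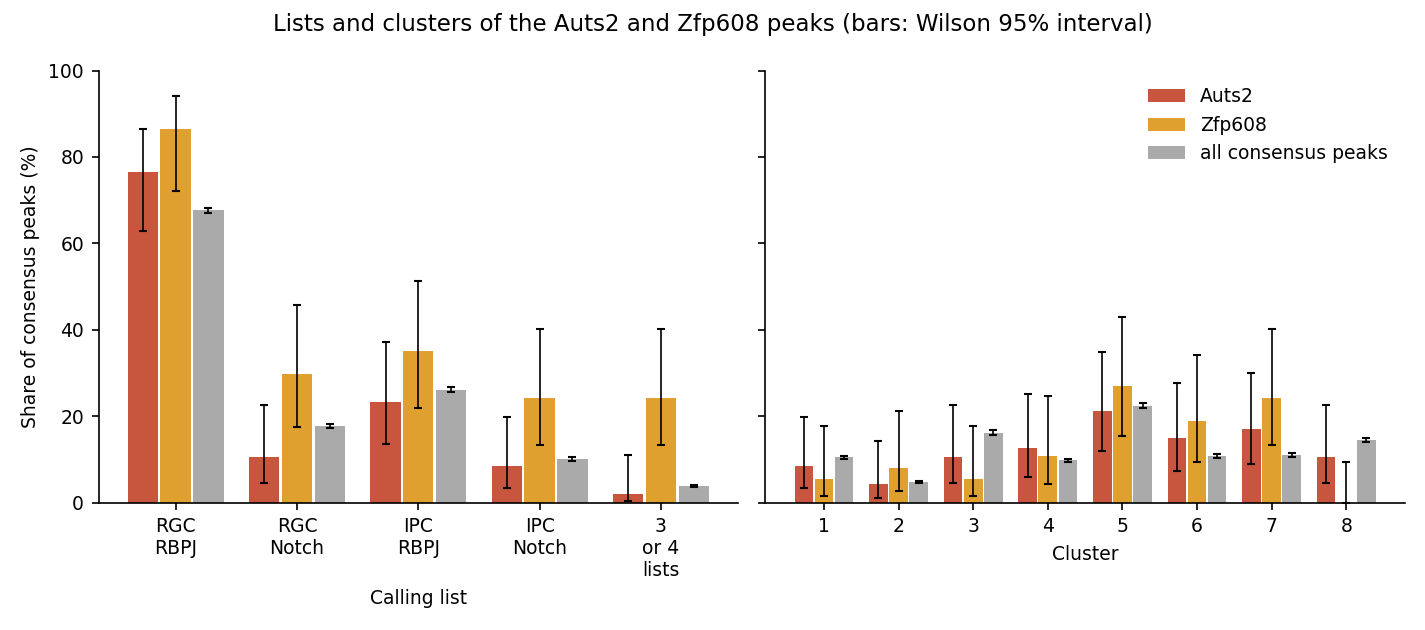
Share of the 47 Auts2 peaks, the 37 Zfp608 peaks and all 20809 consensus peaks called in each list or in 3 or 4 lists (left) and put in each cluster (right), in percent, with Wilson 95% intervals as error bars. In the left panel the Zfp608 shares lie above those of Auts2 (24.3% against 2.13% for 3 or 4 lists), with overlapping intervals in each single list, and Zfp608 has no peak in cluster 8.

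The gaps between peaks follow in part from the selection, since loci with many RGC RBPJ peaks are dense, and are given as a description. The median gap between neighbouring peaks, edge to edge, was 16.7 kb at Auts2, 18.5 kb at Zfp608 and 3.74 kb at Zfp609, against 53.2 kb for neighbouring consensus peaks over the genome. Gaps of at most 10 kb made up 15 of 46 at Auts2 (32.6%) and 12 of 36 at Zfp608 (33.3%), against 16.0% of all. The 2 loci were alike in these gaps but not in how they followed each other. Runs of at least 3 peaks with such gaps numbered 4 at Auts2, each of 3 peaks over 10.5 to 23.9 kb, and all were in introns. Zfp608 had 2 longer runs. A run of 6 peaks (chr18:54952802-54998074, 45.3 kb) crossed its 5′ end, with peaks over 70.6% of its bases, and in it all 6 peaks were called in RGC RBPJ, 3 in RGC Notch, 2 in IPC RBPJ and 1 in IPC Notch. The other run, of 5 peaks over 41.7 kb (chr18:55484339-55526028), began 492 kb upstream of the gene, and 3 of its peaks were called in RGC RBPJ, 2 each in RGC Notch and IPC RBPJ, and 1 in IPC Notch. The widest gaps were 242 kb at Auts2, upstream of the gene, and 120 kb at Zfp608, downstream of it.

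Neighbouring Auts2 peaks seldom shared a cluster. Of 46 pairs of neighbours 2 were in the same cluster, 4.35% (1.20 to 14.53), against 17.0% of the neighbouring pairs over the genome and 6 of 36 at Zfp608, 16.7% (7.87 to 31.9). The same lists called 17 of the 46 Auts2 pairs, 37.0% (24.5 to 51.4), and 8 of the 36 Zfp608 pairs, 22.2% (11.7 to 38.1), against 33.1%. The Auts2 run with the most of its bases in peaks, 70.3%, held 3 peaks over 20.6 kb of intron 4 (chr5:131832115-131852751) in clusters 1, 5 and 2. All 3 were called in RGC RBPJ, and the outer 2 also in RGC Notch.

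**Figure D5:**
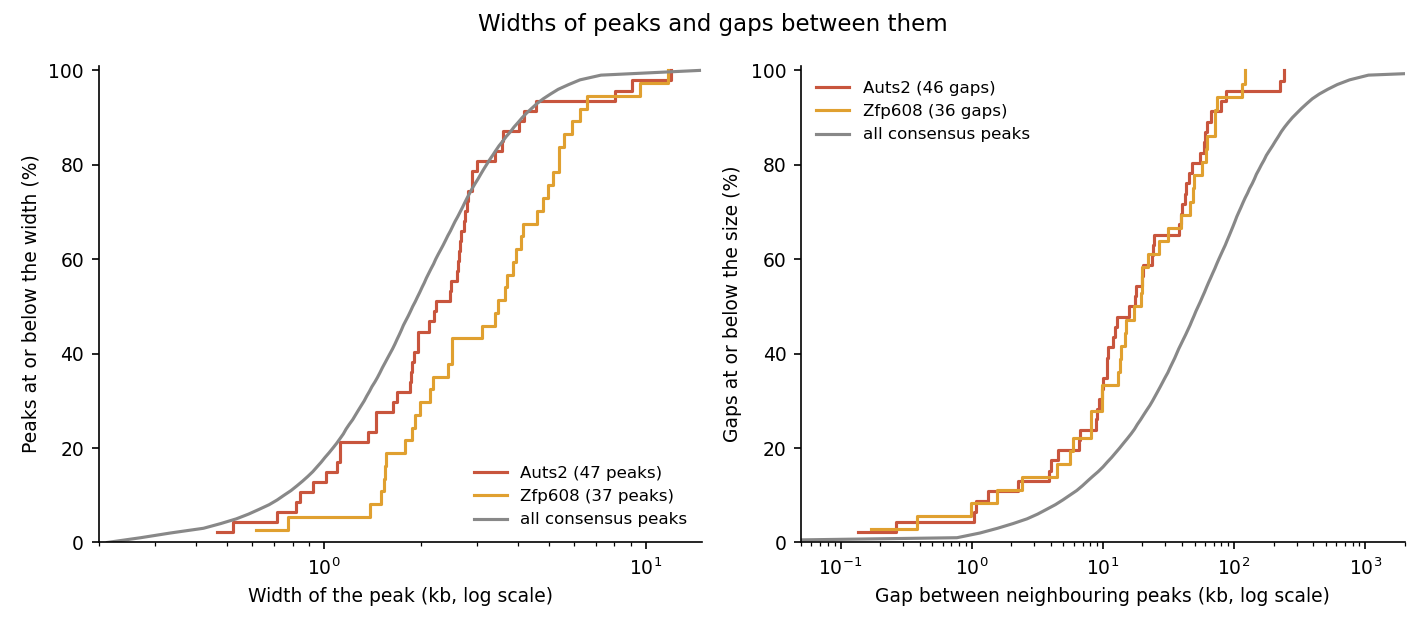
Cumulative share of peaks by width in kb (left) and of gaps between neighbouring peaks in kb (right), on log scales, for Auts2, Zfp608 and all consensus peaks. Over most of the range the Zfp608 widths lie to the right of both other curves (median 3469 bp against 2232 bp and 1890 bp), and the gaps of both loci lie to the left of those over the genome (medians of 16.7 kb and 18.5 kb against 53.2 kb).

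RGC Notch peaks at Auts2 were few, and all 5 lay inside the gene, between 216 kb and 891 kb from its 5′ end. Of these 3 overlapped RGC RBPJ peaks and 2 stood alone, both in cluster 1. Over the genome, RGC RBPJ also called 1616 of the 3688 consensus peaks called in RGC Notch. Cluster 1 held 1277 of the 1872 peaks called in RGC Notch alone. The 4 IPC Notch peaks also lay inside the gene, between 219 kb and 943 kb from the 5′ end. Of the IPC RBPJ peaks 9 lay in the gene and 2 upstream, at 36.9 kb and 368 kb, and these 2 held no GATC site. Of the 47 Auts2 consensus peaks 7 lay upstream. The Notch peaks are too few to show a difference in reach. At Zfp608, 6 of the 11 peaks with an RGC Notch call lay upstream of the gene, 2 lay in it and 3 lay downstream.

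Since Dam methylates GATC, the number of these sites limits where a peak can be seen. Peaks at both loci had GATC at about the density of all peaks, 3.13 per kb at Auts2 and 2.81 at Zfp608, against 2.91. No GATC lay inside 5 of the 47 Auts2 peaks (10.6%, 4.63 to 22.6) and 1 of the 37 Zfp608 peaks (2.70%, 0.479 to 13.8), against 9.76% of all. All 6 of these peaks were called in IPC RBPJ alone. They were 1017 to 1864 bp wide, and the nearest GATC stood 4 to 155 bp outside. Over the genome 1775 of the 2031 peaks without GATC (87.4%) were called in IPC RBPJ alone, and 46.6% of the peaks called so held none. Of the 8 Auts2 peaks called in IPC RBPJ alone 5 held none, among them both IPC RBPJ peaks upstream of the gene. The part of the missing sites in these calls was not tested.

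Of a list of 24 genes whose proteins work with AUTS2 or ZFP609 (Polycomb, casein kinase, p300, cohesin loader and Integrator genes), 9 had a consensus peak (37.5%), against 38.8% of all protein-coding genes. By list, 7 of the 24 had a peak in RGC RBPJ (29.2%, against 30.9%), 3 in RGC Notch (12.5%, against 11.5%), 3 in IPC RBPJ (12.5%, against 16.2%) and 2 in IPC Notch (8.33%, against 6.92%). The median territory of the 24 genes was 67.7 kb. Rybp, which encodes a subunit of the variant Polycomb complexes, had 8 consensus peaks in a territory of 500 kb, with 5 list peaks in RGC RBPJ, 0 in RGC Notch, 2 in IPC RBPJ and 1 in IPC Notch. Pcgf5, whose protein binds AUTS2 in such a complex, had 4 consensus peaks. Ep300 had 2, and Nipbl, Ring1, Yaf2, Ints4, Ints6 and Ints8 had 1 each. The other 15 genes had none, among them Pcgf3, Rnf2 and Fbrs, a further gene of the AUTS2 family.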

How the data were processed

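Peaks were taken as deposited. Per the study's methods, the authors trimmed the reads, aligned them to mm10, normalised each Dam fusion to Dam-only controls with the damidseq pipeline, called broad peaks with MACS2 for each fusion and control pair, and kept peaks found in all pairs of a group. The authors then merged the 4 lists with bedtools and sorted the merged peaks into 8 clusters by k-means of binding intensity averaged over samples. The deposited files give the start and end of each peak in bp and the cluster number, with score columns that hold a single constant. They hold no counts, no intensities and no column of a single sample (0 such columns), so the depth behind each peak is unknown, and broad calling and merging set the widths. The names in the consensus file matched the overlap with the lists at all 20809 nuclear peaks. The file holds 20811 in all.

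Peaks were assigned with GENCODE M21 (GRCm38, the build of the files) to the nearest of 93513 start sites of all transcripts of protein-coding genes. Introns were numbered on the longest transcript of any type for Auts2, chosen after seeing the data, since its longest protein-coding transcript covers part of the gene, and on the longest protein-coding transcript for the others. A midpoint in no gene body was upstream within 5 kb of a start site, and otherwise outside genes. Shares have Wilson 95% intervals, and a count of 0 is given the limit of 3 counts. Intervals and limits cover counting error only. No test was run, since genes were selected on these peaks and no replicate values were at hand. The peaks given in full are those on a start site, those called in 3 or 4 lists and the widest of each gene. Other peaks were named after their values were seen, for their sequence words or their runs. Members, gene list and comparisons were chosen with earlier results of these data known. The protein identity of the paralogs was not analysed here. Assignment, overlap, runs and word counts were checked on simulated data. Python 3.11.15, pandas 2.3.3, scipy 1.17.1, pysam 0.24.0 and samtools 1.23.1 were used.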

Additional observations from a re-analysis of the deposited data

How the results depend on the processing

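The counts depended on which start sites were allowed. With 1 start site per gene Auts2 kept 30 peaks and Epha4 led with 38, and with start sites of all annotated genes, noncoding ones included, Auts2 had 9, Zfp608 had 7 and Sox6 led with 26. The gene and 100 kb on either side held 15 peaks for Zfp608 and 11 for Zfp609, and Fbrsl1 kept 1 peak of at least 1000 bp. When a list had to cover 50% of a peak, IPC Notch called 2.13% of the Auts2 peaks, 10.8% of the Zfp608 peaks and 6.78% of all, IPC RBPJ called 18.9% of the Zfp608 peaks, below the 19.1% at Auts2 and the 22.2% of all, and the share in 3 or 4 lists was 0% at Auts2 and 5.41% at Zfp608. With gaps of at most 20 kb, 29 Auts2 peaks and 20 Zfp608 peaks lay in runs, the longest of 7 and 11 peaks. With gaps of at most 5 kb the peaks in runs were 6 and 4. The longest protein-coding transcript of Auts2 gave 17 peaks in numbered introns, and the longest of any type, added after seeing the data, gave 40. Of the 83 values recomputed, 65 stayed within 1.5 times or within the interval of the main value and 18 moved. The density ranks stayed between 32 and 38 for Auts2 and between 15 and 18 for Zfp608. No paired analysis was possible because the results come from no test and the files hold no values of single samples, and for the same reason no replicate could be left out. The depth of the samples limits what can be said of places without a peak, and its part was not tested.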
